A study of Mus musculus with 6 samples.

Results

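The liver turns the nitrogen of amino acids into urea and burns or converts their carbon skeletons. Its message for 10 genes of these routes was followed here: Cps1, Otc, Ass1, Asl and Arg1 of the urea cycle, the aminotransferases Got1 and Gpt, and Tat, Tdo2 and Hpd, which open the breakdown of tyrosine and tryptophan. The genes were chosen by symbol, with earlier results of these data known. All 10 were on the array with 1 probe each, among 16887 named genes. The Cps1 probe was annotated to a cDNA clone and the other probes to RefSeq transcripts.

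The 6 C57BL/6 mice studied here were fed an HFC (high-fat cholesterol) diet for 12 days from 7 weeks of age. The labels also call it a high fat diet. Liver RNA of these mice was hybridised on 2-colour arrays against 1 pool of liver RNA from 6 chow-fed mice. The HFC-fed mice formed 3 groups of 2. The HFC group received vehicle per the series' design text, the HFC lovastatin group received 30 mg/kg lovastatin, a statin, and the HFC fenofibrate group received 100 mg/kg fenofibrate, an activator of the nuclear receptor PPARα, each orally once a day from day 5. All 3 groups carried the diet, so no group received a drug on chow. The chow mice received vehicle per the same text. Of the study's 24 mice, 6 to an arm, only those named above were analysed here. For the lovastatin mice the treatment description speaks of fenofibrate, whereas sample titles and sources speak of lovastatin. Groups follow the titles.

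In the urea cycle, Cps1 joins ammonia and bicarbonate into carbamoyl phosphate in the mitochondrion, the rate-limiting entry, and Otc passes it to ornithine to make citrulline. Ass1 then joins citrulline to aspartate, Asl splits the product into arginine and fumarate, and Arg1 releases urea and restores ornithine. Got1 interconverts aspartate and glutamate in the cytosol, and its mitochondrial counterpart Got2 makes aspartate that is exported for use by Ass1. Tat, Tdo2 and several urea cycle genes are known in liver as targets of glucocorticoids and of cAMP, the fasting signal, and the enzymes as a group rise with protein intake.

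Each value is a log2 ratio of a mouse to the chow pool, so -1 is a halving and 0 is no difference. That the ratios run mouse over pool is likely but not stated, and base 2 was taken by convention. RNA of the mouse carried Cy5 in the HFC and lovastatin groups but Cy3 in the fenofibrate group, so each group's ratio also carries any dye effect of the probe. The value of 1 control spot changed sign with the dye of the mouse. It was -4.2 and -5.84 on the HFC arrays, below 0 on both lovastatin arrays, and 4.83 and 4.95 on the fenofibrate arrays. What this spot says about the direction of the fenofibrate ratios was not tested, and results with their sign turned are given below as an alternative. Every comparison with the pool shares that pool, whose own spread between mice is left out. A gene that was unusual in the pool would be off on every array. In bulk liver, fewer cells of a type and less RNA per cell cannot be told apart.

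The arrays differed in quality. Log2 ratios had an SD of 0.419 to 1.09 over all probes, widest on HFC lovastatin replicate 1. Replicates of a group correlated at 0.246 in HFC mice, over 10022 features, with the values described next left out. The correlation was 0.189 in lovastatin mice (19002 features) and 0.402 in fenofibrate mice (19211 features). On the array of HFC replicate 2, 4 of 8 column blocks, with 50.3% of the probes, did not follow the other arrays (correlation -0.03 to 0.03 in place). Block and column correlations of this array are with the mean of the other arrays, HFC lovastatin replicate 1 left out. Rotating each of these blocks along the array rows brought the correlation to 0.24 to 0.26. These blocks hold Otc, Arg1, Gpt, Tdo2 and Hpd. The values of these 5 genes on that array were left out, so their HFC group rests on 1 mouse. The value after rotation is given as "put back". Of the genes left in place, the array column of Cps1 correlated at -0.02 and that of Got1 at 0.04 with the other arrays. Another column of the same block matched better for Cps1 (0.33), for Got1 (0.17) and for Asl (0.27, against 0.17 for its own). The position of these genes in HFC replicate 2 rests on their whole blocks, which matched best unrotated (0.16 for Cps1, 0.25 for Got1 and Asl). No spot intensities were used here, so whether a probe was above background is unknown, and liver cell markers could be read only as ratios, not as levels.

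RefSeq promoter windows (build GRCm38.p6, 250 bases before the start and 50 after it) were found for 6 of the 10 genes: Otc, Ass1, Got1, Tat, Tdo2 and Hpd. The 250 bases before the start are printed for 3 of them: Got1, the only gene of the 10 past the test threshold, Tat, with the next largest difference, and Otc, whose difference was the nearest to 0. They lie at chr19:43524606-43524855 on the minus strand for Got1, chr8:109990186-109990435 on the plus strand for Tat and chrX:10252055-10252304 on the plus strand for Otc. Capitals mark matches on either strand to the motifs searched: the cAMP response element TGACGTCA and its half-site TGACG, the C/EBP palindrome TTGCGCAA, the nuclear receptor half-site AGGTCA, the glucocorticoid receptor half-site AGAACA and the CCAAT box CCAAT. The half-site TGACG is part of TGACGTCA.
Got1: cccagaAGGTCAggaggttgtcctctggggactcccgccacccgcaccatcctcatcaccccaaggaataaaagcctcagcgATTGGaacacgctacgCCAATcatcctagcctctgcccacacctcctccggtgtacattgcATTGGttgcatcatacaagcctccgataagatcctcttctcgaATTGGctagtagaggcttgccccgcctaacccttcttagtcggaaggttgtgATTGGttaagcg
Tat: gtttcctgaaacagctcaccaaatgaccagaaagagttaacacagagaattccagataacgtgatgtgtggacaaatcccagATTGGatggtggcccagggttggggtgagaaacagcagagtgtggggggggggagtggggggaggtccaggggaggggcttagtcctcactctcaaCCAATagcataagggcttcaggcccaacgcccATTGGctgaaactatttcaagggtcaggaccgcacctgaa
Otc: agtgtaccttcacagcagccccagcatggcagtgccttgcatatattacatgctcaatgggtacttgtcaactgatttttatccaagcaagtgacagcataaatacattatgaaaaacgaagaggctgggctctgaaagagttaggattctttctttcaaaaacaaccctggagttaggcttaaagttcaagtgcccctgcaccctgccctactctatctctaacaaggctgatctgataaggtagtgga

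The Got1 window held 6 CCAAT boxes, 5 of them in the bases printed, and 1 AGGTCA. The Tat window held 3 CCAAT boxes, and the Otc window held no match to any of the motifs. Among all 32851 windows of 300 bases, 37.4% held CCAAT, against 3 of the 6 member windows (Got1, Tat and Tdo2). A count as high as the 6 of Got1, noticed after the search, occurred in 26 windows (0.079%). AGGTCA was in 16.3% of all windows and in those of Got1 and Tdo2. TGACG (20.8% of all windows), TGACGTCA (1.8%), AGAACA (19.0%) and TTGCGCAA (60 windows) matched 0 of the 6. These letters are a description of the windows only.

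The question of what the diet and the drugs did to these genes was first asked of all HFC-fed mice together, with both dye orientations weighted equally. Got1 fell to 0.362 times the pool, the 1 call among the 10. Tat, Ass1, Hpd and Asl lay between -0.67 and -1.06 without passing the threshold, an adjusted p under 0.05 by limma with Benjamini-Hochberg adjustment over all features. Otc and Arg1 were close to 0. In all, 9 of the 10 estimates were below 0, with a median of -0.54, against a median of 0.01 and 48.8% below 0 over all features.

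**Figure D1:**
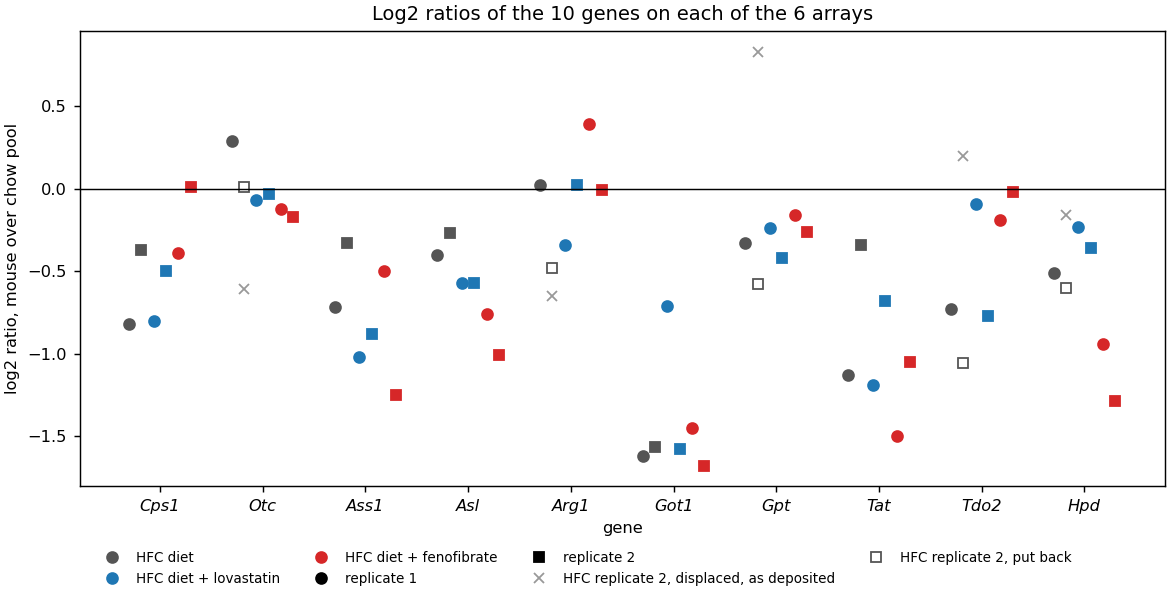
Log2 ratio of each of the 10 genes (x axis) to the chow pool on each of the 6 arrays (y axis), coloured by group. Circles are replicate 1 and squares replicate 2, crosses are the displaced values of HFC replicate 2 as deposited, and open squares are the same values put back. Got1 is at -1.62 and -1.57 in HFC and at -1.45 and -1.68 in fenofibrate mice, while Otc and Arg1 straddle 0.

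The test called 110 of 19447 features in this comparison (0.566%), 33 higher and 77 lower. The share called lower was 0.396%. Among the 10 genes 1 was called, and 6 had an unadjusted limma p under 0.05, against 10.8% of all features. Since the 10 were chosen with earlier results known, the shares in this paragraph are a description only. With the displaced values put back, 191 of 19459 features were called (0.982%) and again 1 of the 10. Of the 10, 7 (Ass1, Asl, Got1, Gpt, Tat, Tdo2 and Hpd) were below 0 on every array with a value, as were 7.12% of the 19078 features with 5 or 6 values. The same 7 were below 0 on all 6 arrays with the values put back, against 5.84% of features. If the fenofibrate ratios ran the other way, 0 of the 10 would be below 0 on every array with a value, 4 of the 10 estimates over all HFC-fed mice would be below 0, and their median would be 0.08.

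Got1 is the cytosolic aspartate aminotransferase. Its log2 ratio was -1.62 and -1.57 in HFC mice, -0.71 and -1.58 in lovastatin mice and -1.45 and -1.68 in fenofibrate mice. All 6 mice were below the pool, and 5 of them by similar amounts. The exception, -0.71, came from the lovastatin array with the widest spread. The gene lay in the lowest 0.94% of features or below on those 5 arrays and at the 20.1 percentile on that array. Over all HFC-fed mice its difference was -1.47 (SE 0.155, 95% interval -1.86 to -1.08, limma adjusted p = 0.0381).

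The Got1 call was lost when any 1 HFC or fenofibrate mouse was left out. Each such fit leaves a group with 1 array, and calls over all features fell there too, so the loss was not particular to Got1. The difference was then -1.46 without HFC replicate 1 (adjusted p = 0.172), -1.47 without HFC replicate 2 (0.141), -1.53 without fenofibrate replicate 1 (0.467) and -1.41 without fenofibrate replicate 2 (0.668). It held without either lovastatin mouse (limma adjusted p = 0.0119 and 0.0134). If the fenofibrate ratios ran the other way, the difference would be 0.10 (adjusted p = 0.923).

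The other aminotransferase, Gpt, moves the amino group of alanine. Its log2 ratio was -0.33 in the HFC mouse kept, -0.24 and -0.42 in lovastatin mice and -0.16 and -0.26 in fenofibrate mice. HFC replicate 2 read 0.83 as deposited and -0.58 put back. All 5 kept values were below 0, and the lovastatin values overlapped those of both other groups. The difference was -0.27 (SE 0.123, adjusted p = 0.539, and -0.30 with adjusted p = 0.340 put back), which did not pass.

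Within the urea cycle, Ass1 and Asl had the lowest estimates over all HFC-fed mice, neither past the threshold, while Cps1 had the lowest mean in HFC mice. Ass1 gave -0.72 and -0.33 in HFC mice, -1.02 and -0.88 in lovastatin mice and -0.50 and -1.25 in fenofibrate mice. The fenofibrate mice lay on either side of both lovastatin mice, and the groups overlapped except lovastatin against HFC. The difference over all mice was -0.81 (SE 0.150, limma adjusted p = 0.135).

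Asl, the next enzyme, was -0.40 and -0.27 in HFC mice, -0.57 in both lovastatin mice, and -0.76 and -1.01 in fenofibrate mice. It was the gene of the 10 that lay closest to the mean of the 10 (root mean square distance 0.196 over 5 arrays). No 2 groups overlapped, with HFC nearest to 0 and fenofibrate farthest. The difference over all mice was -0.67 (SE 0.106, limma adjusted p = 0.0962).

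Cps1, the entry enzyme, was -0.82 and -0.37 in HFC mice, -0.80 and -0.50 in lovastatin mice, and -0.39 and 0.01 in fenofibrate mice. It was below 0 in 5 of 6 mice, and 1 fenofibrate mouse was at the pool's level. The difference was -0.41 (SE 0.133, adjusted p = 0.364).

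The other urea cycle enzymes did not share this. Otc was 0.29 in HFC replicate 1 (0.01 put back in replicate 2, -0.61 as deposited), -0.07 and -0.03 in lovastatin mice, and -0.12 and -0.17 in fenofibrate mice. Arg1 was 0.02 in HFC replicate 1 (-0.48 put back in replicate 2, -0.65 as deposited), -0.34 and 0.02 in lovastatin mice, and 0.39 and -0.01 in fenofibrate mice. Their values lay on both sides of 0. The limma difference was -0.01 for Otc (95% interval -0.33 to 0.31, adjusted p = 0.977) and 0.06 for Arg1 (-0.33 to 0.45, adjusted p = 0.908). The intervals leave out a drop as large as that estimated for Asl, but no difference between members was tested.

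Tat transfers the amino group of tyrosine. Its log2 ratio was -1.13 and -0.34 in HFC mice, -1.19 and -0.68 in lovastatin mice, and -1.50 and -1.05 in fenofibrate mice. Every mouse was below the pool, and the HFC mice lay farther apart than the mice of either drug group. The difference was -1.06 (SE 0.170, limma adjusted p = 0.100, 0.0703 put back).

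Hpd, hydroxyphenylpyruvate dioxygenase, acts on the product of Tat. It was -0.51 in HFC replicate 1 (-0.60 put back in replicate 2, -0.16 as deposited), -0.23 and -0.36 in lovastatin mice, and -0.94 and -1.29 in fenofibrate mice. Both fenofibrate mice lay below all other values of the gene. The difference over all mice was -0.76 (SE 0.133, limma adjusted p = 0.161, 0.0568 put back).

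Tdo2, the dioxygenase that opens the tryptophan ring, was -0.73 in HFC replicate 1 (-1.06 put back in replicate 2, 0.20 as deposited), -0.09 and -0.77 in lovastatin mice, and -0.19 and -0.02 in fenofibrate mice. Both fenofibrate values and 1 lovastatin value were close to 0. The difference was -0.34 (SE 0.162, adjusted p = 0.558, 0.358 put back).

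**Figure D2:**
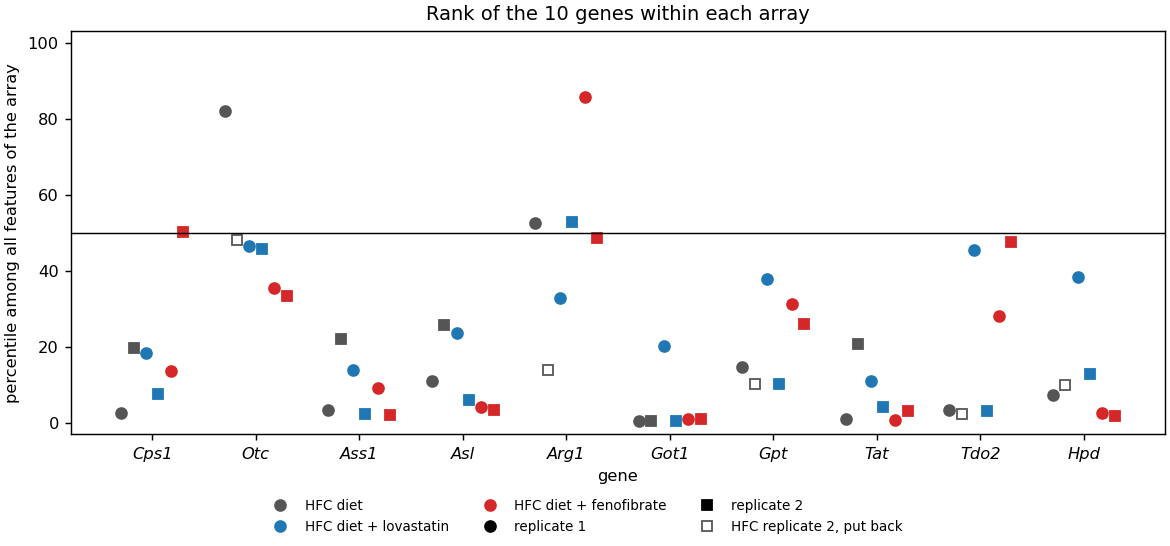
Percentile of each of the 10 genes (x axis) among all features of the same array (y axis, 0 is the lowest log2 ratio on the array), coloured by group. Circles are replicate 1, squares replicate 2 and open squares values put back, ranked among all put-back features. Got1 lay at 0.38 to 0.94 on 5 arrays and at 20.1 on HFC lovastatin replicate 1, while Otc and Arg1 reached 81.9 and 85.8.

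By group against the pool, limma called none of the 10 genes and no feature in HFC (0% of 19499), lovastatin (0% of 19501) or fenofibrate mice (0% of 19470). Unadjusted p-values under 0.05 numbered 921, 2064 and 1483 over all features and 3, 5 and 5 among the 10 genes. The group medians of the 10 genes were -0.52 in HFC mice, -0.50 in lovastatin mice and -0.54 in fenofibrate mice, with 8, 10 and 9 genes below 0. All 3 groups share the pool, so these values are not independent of each other.

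Got1 had the lowest group mean in HFC mice (-1.60 ± 0.0354, SD, n = 2), in lovastatin mice (-1.15 ± 0.615, n = 2) and in fenofibrate mice (-1.57 ± 0.163, n = 2). Its limma adjusted p was 0.403, 0.403 and 0.214. With array quality weights, Got1 in fenofibrate mice passed (adjusted p = 0.0335). Behind it in HFC mice came Tat (-0.74 ± 0.559, n = 2) and Tdo2 (-0.73, n = 1), in lovastatin mice Ass1 (-0.95 ± 0.0990, n = 2) and Tat (-0.94 ± 0.361, n = 2), and in fenofibrate mice Tat (-1.28 ± 0.318, n = 2) and Hpd (-1.12 ± 0.247, n = 2). Apart from Got1 and Tat in HFC mice, neighbours in these orders differed by less than the larger of their SDs.

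**Figure D3:**
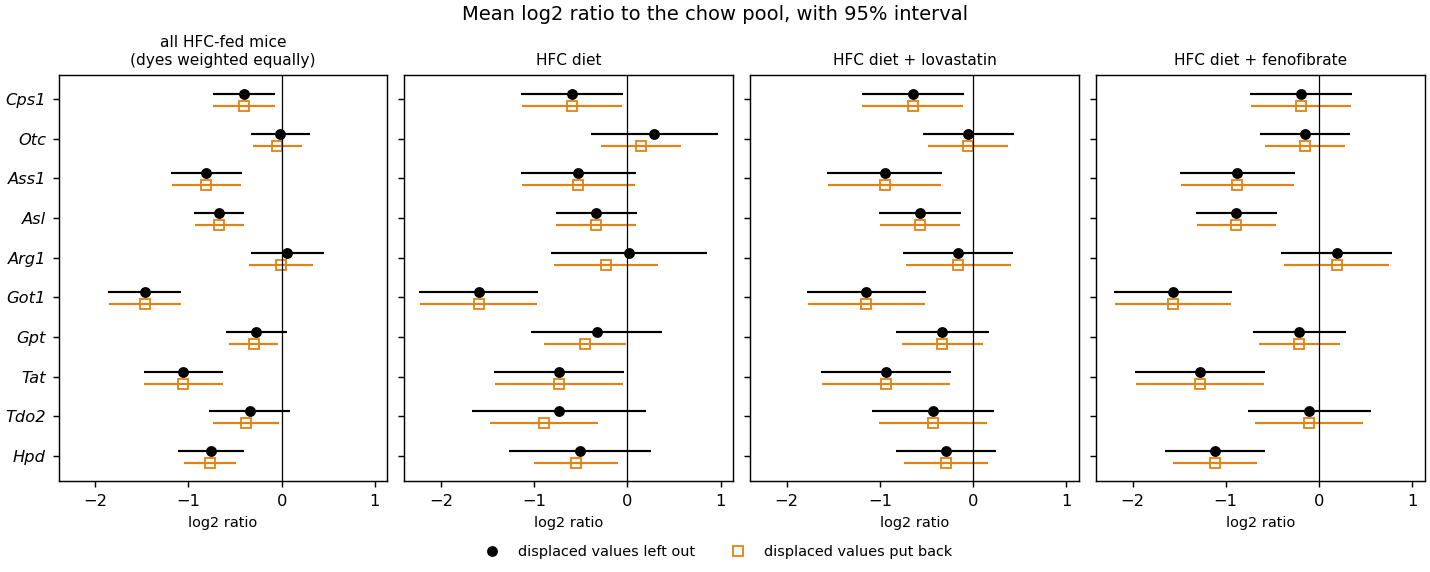
Mean log2 ratio to the chow pool (x axis) of each of the 10 genes for all HFC-fed mice and for each group, with 95% intervals from limma. Filled circles leave displaced values out and open squares use them put back. Got1 is at -1.47 over all mice, and the intervals of Otc and Arg1 cross 0 in every panel.

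The drug comparisons asked whether lovastatin or fenofibrate moved these genes away from diet alone. Limma called none of the 10 genes and no feature for lovastatin against HFC (0% of 19485), fenofibrate against HFC (0% of 19456) or fenofibrate against lovastatin (0% of 19459). Unadjusted p-values under 0.05 numbered 390, 559 and 1075 over all features and 0, 0 and 1 among the 10 genes. The HFC arrays serve both drug comparisons. The median 95% interval of the 10 genes reached 0.888, 0.888 and 0.806 log2 units to either side. These intervals carry no adjustment over features, so changes of roughly that size, and larger ones, could be missed by the test.

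The 1 gene was Hpd in fenofibrate against lovastatin mice, with a difference of -0.82 (SE 0.283, 95% interval -1.58 to -0.06, limma adjusted p = 0.701). Against HFC, which for Hpd and Tdo2 is the 1 mouse kept, fenofibrate mice were -0.61 for Hpd (interval -1.54 to 0.33), -0.55 for Asl (-1.17 to 0.07), -0.54 for Tat (-1.53 to 0.45) and 0.63 for Tdo2 (-0.52 to 1.77, and 0.79 put back). Lovastatin mice against HFC gave 0.45 for Got1 (-0.45 to 1.35) and -0.43 for Ass1 (-1.30 to 0.45). Every one of these intervals against HFC holds 0. Fenofibrate and HFC or lovastatin arrays also carry opposite dyes, so drug and dye cannot be told apart there.

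With displaced values put back, the 2 arrays of lovastatin and of HFC did not overlap for 4 of the 10 genes (Otc, Ass1, Asl and Hpd), against 30.7% of features. For fenofibrate against HFC it was 5 (Otc, Asl, Gpt, Tdo2 and Hpd), against 40.1%. For fenofibrate against lovastatin it was 4 (Cps1, Otc, Asl and Hpd), against 40.4%. These shares lie near the background and set the 10 genes apart in none of the drug comparisons.

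**Figure D4:**
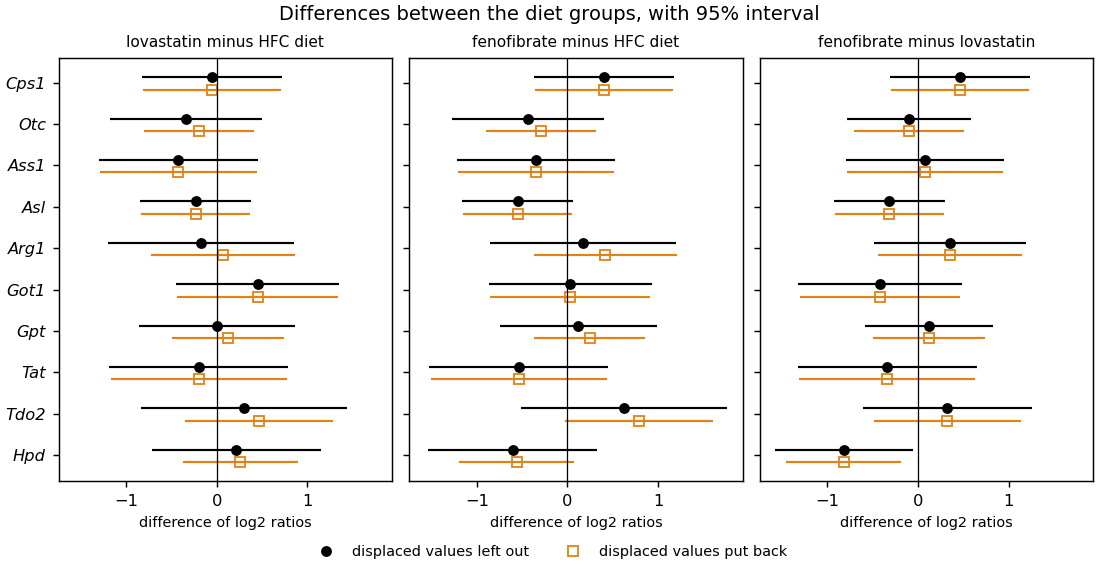
Differences between the 3 diet groups in log2 ratio (x axis) for each of the 10 genes, with 95% intervals from limma. Filled circles leave displaced values out and open squares use them put back. With displaced values left out, the interval excludes 0 for Hpd in fenofibrate minus lovastatin (-0.82) and for no other gene in the 3 panels.

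The wider pathways were read in the comparison of all HFC-fed mice with the pool, from lists that leave the 10 genes out. In the urea cycle, ammonia and glutamine list, 0 of 11 genes passed and 8 were below 0 (median -0.23). Its lowest were Oat, ornithine aminotransferase (-1.51, adjusted p = 0.0655), and Glul, glutamine synthetase, the other hepatic sink for ammonia (-1.20, adjusted p = 0.0567). Both passed limma with the displaced values put back (-1.55, adjusted p = 0.0156, and -1.22, adjusted p = 0.0126). By mouse Glul was -0.87 (HFC, -1.09 put back), -0.70 and -0.53 (lovastatin), and -1.69 and -1.61 (fenofibrate). Oat was -1.06 (-1.41 put back), -0.77 and -0.89, and -2.41 and -1.72 in the same order. Both genes were lowest in the fenofibrate mice, whose arrays carry the other dye.

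Of the proline and lysine list, 1 of 6 genes fell and all 6 were below 0 (median -0.24). Prodh, proline dehydrogenase, was -1.79 (HFC, -1.17 put back), -1.32 and -1.70 (lovastatin), and -1.58 and -1.84 (fenofibrate), with a difference of -1.68 (SE 0.139, limma adjusted p = 0.0394). The 5 kept values lay between -1.32 and -1.84, and those of lovastatin and fenofibrate mice overlapped.

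Among amino acid transporters, 2 of 12 fell and 10 were below 0 (median -0.42). Slc38a3, a glutamine carrier, was -1.16 (limma adjusted p = 0.0394), with -1.34 and -1.13 in HFC mice, -1.05 and -1.20 in lovastatin mice and -0.89 and -1.39 in fenofibrate mice. Slc1a2, a glutamate carrier, was -1.71 (adjusted p = 0.0414, and -1.60 put back). It is displaced in HFC replicate 2, so its HFC group is 1 mouse, at -2.41 (-1.50 put back in replicate 2). Lovastatin mice were at -1.07 and -1.48 and fenofibrate mice at -1.77 and -1.40. With displaced values put back, 4 passed, the others being Slc16a10 (-1.08), which carries aromatic amino acids, and Slc6a12 (-1.06), a betaine carrier.

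The breakdown lists for single amino acid families had no call. Aminotransferases other than Got1, Gpt and Tat had 6 of 9 below 0 (median -0.08), led by mitochondrial Gpt2 (-0.81, adjusted p = 0.100) and Agxt (-0.75, adjusted p = 0.190). Of the phenylalanine and tyrosine list 6 of 7 were below 0 (median -0.25), led by Qdpr (-0.76), which recycles the cofactor of phenylalanine hydroxylase, and Hgd (-0.39), which acts after Hpd. Tryptophan and kynurenine genes past Tdo2 had 4 of 6 below 0 (median -0.03), with Haao at -0.70 and Ido2 at -0.48.

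The remaining families lay around 0. Serine, glycine and threonine genes had 2 of 6 below 0 (median 0.05), with glyoxylate reductase Grhpr at 0.69 and the glycine cleavage gene Gldc at 0.46. Histidine genes had 2 of 4 below 0 (median 0.03), with Ftcd at 0.16 and Uroc1 at 0.10. Branched-chain genes had 11 of 17 below 0 (median -0.07), and the subunits Bckdhb and Dbt of the branched-chain dehydrogenase were at -0.34 and -0.33.

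Regulators of amino acid genes had 0 of 15 called and a median of 0.01, with Ppargc1a at -0.56 and Creb3l3 at 0.33. Of genes known to respond to glucocorticoids and cAMP, 1 of 8 fell and 7 were below 0 (median -0.87). By group the median was -0.31 in HFC mice, -1.01 in lovastatin mice and -1.04 in fenofibrate mice. In HFC mice 5 of the 8 genes are displaced and rest on replicate 1 alone. The median was -0.235 on HFC replicate 1 (8 genes) and -0.73 on HFC replicate 2 (3 genes). None of the 8 was called between groups. The call was G6pc, the enzyme that releases glucose from hepatocytes (-1.76, limma adjusted p = 0.0439), which was -0.19 in HFC replicate 1 and between -1.32 and -2.78 in the other 5 mice. Igfbp1 was -2.29 (adjusted p = 0.0907) and passed with displaced values put back (-2.43, adjusted p = 0.0320).

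**Figure D5:**
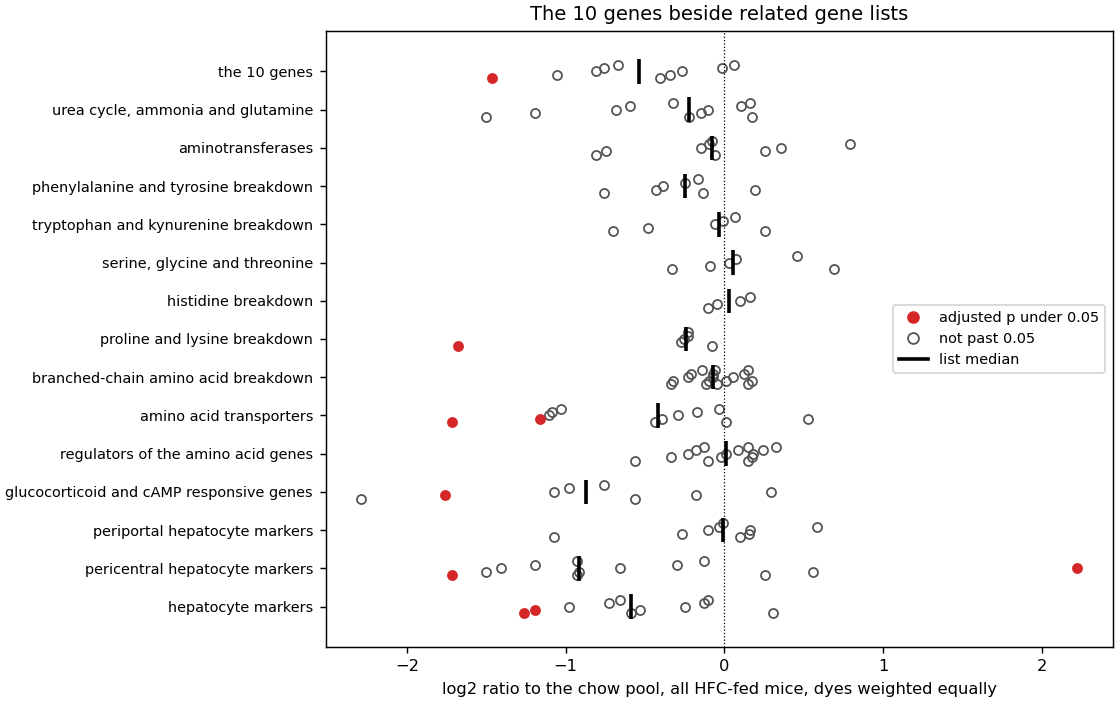
Log2 ratio to the chow pool over all HFC-fed mice (x axis, dyes weighted equally, displaced values left out) of each gene in the 10 and in related lists (y axis). Filled red circles passed an adjusted p of 0.05, open circles did not, black bars are list medians and the vertical scatter has no meaning. The 10 genes have a median of -0.54, between 0.05 for the serine, glycine and threonine list and -0.92 for pericentral markers.

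Urea cycle enzymes are known to be richest around the portal vein and Glul, Oat and Slc1a2 around the central vein. Periportal markers outside the 10 genes had 0 of 9 called and 5 below 0 (median -0.01), with Hsd17b13 at 0.59 and Pck1 at -1.07. Pck1, a gluconeogenic enzyme, was above the pool in HFC replicate 1 (0.41, and 0.64 put back in replicate 2) and below it in lovastatin mice (-0.61 and -1.99) and fenofibrate mice (-2.22 and -1.18). Pericentral markers had 1 of 13 lower (Slc1a2) and 1 higher (Gstm3, a glutathione transferase, 2.22, limma adjusted p = 0.0470), and 10 below 0 (median -0.92). Gstm3 is displaced in HFC replicate 2. It was 2.67 in HFC replicate 1 (3.31 put back in replicate 2), 1.31 and 2.36 in lovastatin mice and 2.20 and 2.18 in fenofibrate mice. With displaced values put back, 3 pericentral markers were lower and 1 was higher. Glul, Oat and Slc1a2 count in this list and in those above. Hal, Ftcd and Uroc1 count in both the histidine and the periportal list, so those medians are not separate observations. Pck1 counts in the periportal and the glucocorticoid and cAMP list, and Ppargc1a in the latter and the regulator list. Hnf4a is in the regulator and hepatocyte lists, and Sox9 in the periportal and cholangiocyte lists.

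Markers of hepatocytes were mostly below 0 as well. Of 11 hepatocyte markers 10 were below 0 (median -0.59), and 2 fell, the secreted proteins Serpina1d (-1.20, limma adjusted p = 0.0273), which has near-identical paralogs, and Ahsg (-1.26, adjusted p = 0.0459). With displaced values put back 3 passed, the other being Ttr, the thyroid hormone carrier (-0.98, adjusted p = 0.0207). Their median by array ran from -0.11 to -0.33 on HFC and lovastatin arrays and was -0.63 and -0.90 on fenofibrate arrays, with single markers from -2.23 to 1.96. The 10 genes had medians of -0.34 to -0.62 on the former and -0.45 and -0.64 on the latter. The part of hepatocyte share or RNA in the values of the 10 genes was not tested.

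Markers of other liver cells had no call. Kupffer cell and macrophage markers had 8 of 10 below 0 (median -0.24, by array from -0.65 to 0.13, lowest in fenofibrate mice). The medians were -0.17 for endothelial (9 genes), -0.19 for stellate and fibroblast (9), 0.02 for cholangiocyte (5), -0.20 for lymphocyte (8), 0.09 for neutrophil (6), -0.13 for erythroid (3) and -0.20 for adipocyte markers (3). Their part in the results was not tested either.

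The gene outside the 10 whose ratios lay nearest to the mean of the 10 over the 5 arrays other than HFC replicate 2 was Cyb5r3, a cytochrome reductase, among 16372 genes compared. Its root mean square difference was 0.0700. Car5a, the mitochondrial carbonic anhydrase known to supply bicarbonate to Cps1, came next (0.0948), at -0.42 in the HFC mouse, -0.53 and -0.48 in lovastatin mice and -0.63 and -0.69 in fenofibrate mice. The olfactory receptor gene Olfr935 followed (0.101). The mean of the 10 was -0.60, then -0.53 and -0.58, then -0.56 and -0.67 on the same arrays.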

How the data were processed

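The authors deposited 1 value for each spot on each array, read here as a log2 ratio. Per the labels' protocols, 0.5 µg of total RNA was labelled by linear amplification. Not given in the sources used here: how spots were scanned, background-corrected and normalized. Across arrays the median was -0.01 to 0.03; scale and direction stay unstated, and centring was tested as an alternative. With no intensities used here, precision is limited by the number of arrays.

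After removal of 726 spots without values and 561 unnamed control spots from 22575, 21288 probes remained. The platform annotation names 1 gene at 18658 probes and several genes at 30, with no name at 3887 spots; 18445 matched the gene table by Entrez number and 0 symbols were updated. Probes of 1 gene were averaged (1247 genes), giving 16887 genes and, with 2630 unnamed probes, 19517 features. In HFC replicate 2, columns 28 to 54, 82 to 135 and 163 to 189 of 215 are displaced, and their values were set to missing. Put back, they were rotated within blocks of 27 columns by 11, 22, 6 and 17 columns. These rotations correlated best with the mean of the other arrays, HFC lovastatin replicate 1 left out.

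Group means over all 6 arrays were fitted in R 4.3.3 by limma 3.58.1, with statmod 1.5.0. Benjamini-Hochberg adjustment ran over all features, with a threshold of 0.05. A feature with all 6 values had 3 residual degrees of freedom (prior 2.37). Features with missing values had fewer, Otc, Arg1, Gpt, Tdo2 and Hpd among them. For all HFC-fed mice together, the weight was 0.5 for fenofibrate and 0.25 for each other group. The fit was tested on simulated data. Replicates are separate mice per the labels. Python 3.11.15 with pandas 2.3.3, numpy 2.4.6 and matplotlib 3.10.9 served for data preparation and figures.

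The 10 genes and the gene lists were chosen with earlier results of these data known. The text names all 10 genes and, of each other list, every gene past the threshold, otherwise the 2 with the smallest p over all HFC-fed mice (marker lists of other liver cells are given as medians only), plus the 3 genes nearest to the mean of the 10. Igfbp1, Slc16a10, Slc6a12 and Ttr were added after their values were seen, since they passed with displaced values put back. Alternatives were: displaced values as deposited or put back, median centring, quantile normalization, single probes, a robust prior, leaving out the 10% of features with the largest residual variance, array quality weights, a replicate block, the fenofibrate sign turned, only the compared arrays, and leaving out each array.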

Additional observations from a re-analysis of the deposited data

How the results depend on the processing

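Among the 10 genes only Got1 over all HFC-fed mice was called as reported, so most values under other settings had no call to lose. Of 1130 such values of single genes, 1056 kept their direction and side of the threshold, 63 moved, 5 became stronger and 5 weaker. The 1 other, Got1 over all HFC-fed mice with the fenofibrate sign turned (0.10, limma adjusted p = 0.923), reversed. The adjusted p of Got1 otherwise ran from 0.00699 to 0.668. Asl and Tat passed over all HFC-fed mice with the 10% noisiest features left out (limma adjusted p = 0.0375 and 0.0294). That setting also raised the features called from 110 to 344. Without lovastatin replicate 2, which leaves that group on the array with the widest spread, the differences were -0.67 for Asl and -1.12 for Tat.

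Over all HFC-fed mice, the 110 features and 1 of the 10 genes called became 67 features with displaced values as deposited, 191 put back, 191 with quantile normalization, 344 features and 3 genes without the 10% noisiest features, 230 with array quality weights, 0 and 0 with the sign turned, and 0 to 824 features and 0 to 3 genes with 1 mouse left out. Features called for HFC against the pool, 0 as reported, were 5 put back, 9 with quantile normalization, 20 without the 10% noisiest features and 0 to 6 leaving out a mouse. For lovastatin against the pool they were 2, 4, 44 and 0 to 3805. For fenofibrate against the pool they were 32, 14, 100 and 0 to 23, with 9 as deposited, 12 with centring and 111 (Got1 the 1 gene of the 10) with quality weights. Turning the sign gave 37 for fenofibrate against HFC and 60 against lovastatin. Leaving out a mouse gave 0 to 1184 for lovastatin against HFC and 0 to 2033 for fenofibrate against lovastatin, the highest without lovastatin replicate 2, which leaves the group on the array with the widest spread, assumed to vary like the others.

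Replicate numbers did not pair the mice (correlations of deviations -0.02, -1e-04 and 0.03). With the replicate block 0 features and 0 of the 10 genes were called over all HFC-fed mice (Got1 adjusted p = 0.0986). Without HFC replicate 1, the 5 displaced genes have no HFC value and were not fitted in comparisons that use that group.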
